A study of Homo sapiens with 9 samples.

Results

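Of the 5010 peaks that Argonaute (Ago) gained with the miR-342-5p mimic over the negative control mimic, 2542 (50.7%, 95% CI 49.4–52.1%, Wilson) lay in coding exons and had no seed site for the miRNA near their summit. They made up 72.4% of the 3509 coding exon peaks of that list, and the other 967 coding exon peaks had a seed site. A peak was counted when its midpoint lay on its own strand in a coding exon and in no annotated 3′UTR. No 8mer, 7mer-m8 or 7mer-A1 match to the seed was allowed within 50 nt of the summit, the position of highest coverage. Absence of a seed site is therefore the definition of these peaks and not a result. They are called seedless coding peaks here, and they fell in 1287 genes.

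The 9 Ago-HITS-CLIP libraries came from MDA-MB-231HM, a highly metastatic variant of a human triple-negative breast cancer line, given as wild type. Cells were transfected with 20 nM of a miR-342-5p, miR-342-3p or negative control mimic for 48 h, with 3 libraries of each, so every group carried a mimic and the controls differed in its sequence. Ago was crosslinked to RNA by UV light and immunoprecipitated with an antibody against Ago2. Both deposited lists, 8460 peaks in all, rest on the same control libraries and merge the replicates of a mimic. No value per library exists in them, so the depth is unknown, no replicate error can be given, and the CIs and tests below treat each peak as independent and cover counting error only. Nothing in the labels says whether the 3 libraries of a mimic came from separate cultures.

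An Ago protein holds a miRNA with its 5′ end exposed, and the bases after the first one, the seed, find most targets by Watson-Crick pairing. Sites in 3′UTRs are the best known, whereas a site in a coding exon is crossed by translating ribosomes and is in general associated with weaker repression. Crosslinking experiments also recover contacts with shorter or imperfect seed matches, such as 6-base matches, G:U wobble pairs or a bulged base in the target. miR-342-5p is usually the less abundant strand of its precursor, and its seed is rich in G, so its full match is a run of C.

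The mature miRNA is shown first, with its seed (bases 2 to 8) in capitals, since all matches below are read against it (RefSeq, GRCh38).

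miR-342-5p: aGGGGUGCuaucugugauuga

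The definition leaves partial matches free, and 5 kinds of these were searched in the mRNA within 50 nt of each summit. The 6mer CACCCC pairs with bases 2 to 7. The offset 6mer GCACCC pairs with bases 3 to 8, and the 6mer-A1 ACCCCA pairs with bases 2 to 6 next to an A. A 1-wobble 7mer is GCACCCC with 1 letter changed to give a G:U pair. The wobble at base 7 of the miRNA reads GTACCCC, the wobble at base 6 reads GCGCCCC, and the wobble at base 5 reads GCATCCC. The wobble at base 4 reads GCACTCC, the wobble at base 3 reads GCACCTC, and the wobble at base 2 reads GCACCCT, which contains an offset 6mer. The bulged 7mer CAACCCC has an extra A within the 6mer.

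The following 30-nt stretches of the genome (hg19, strand of the peak, 5′ to 3′) are from the highest-scoring seedless coding peaks that hold a 6mer, in capitals. They are shown because this match is the most frequent one and because the base before it, opposite base 8 of the miRNA, is so often a T.

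B2M, chr15:45007811-45007840, plus strand: ctacactgaattCACCCCcactgaaaaaga

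KDELR1, chr19:48892805-48892834, minus strand: caatcatgacttCACCCCtctggaggtagg

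HSP90AA1, chr14:102548081-102548110, minus strand: ctgaagaaatgcCACCCCttgaaggagatg

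DUSP6, chr12:89744469-89744498, minus strand: catcttgaacgtCACCCCcaatttgccgaa

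RCN1, chr11:32112955-32112984, plus strand: cttcgaccagctCACCCCggacgagagcaa

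RPS24, chr10:79795272-79795301, plus strand: attgatgtccttCACCCCgggaaggcgaca

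EIF3D, chr22:36913398-36913427, minus strand: attccttcaattCACCCCgcaacctggcca

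The next set shows the other kinds of match, in capitals, in high-scoring peaks that hold them and no 6mer: 6mer-A1 in the 2 PKM peaks, wobble 7mers in AHNAK and DYNC1H1, a bulged 7mer in EEF1A1, and an offset 6mer in PHLDA1.

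PKM, chr15:72502747-72502776, minus strand: gctttgcttctgACCCCAtcctctaccggc

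PKM, chr15:72494865-72494894, minus strand: ccattaccagcgACCCCAcagaagccaccg

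AHNAK, chr11:62299962-62299991, minus strand: tgcccacgttcaGCACTCCaggagccaaag

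DYNC1H1, chr14:102514299-102514328, plus strand: gtccaactggctGCACCTCatcccccagac

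EEF1A1, chr6:74228710-74228739, minus strand: gaaaattggctaCAACCCCgacacagtagc

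PHLDA1, chr12:76424413-76424442, minus strand: tcatcctcactcGCACCCacaccctcaccc

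For contrast, the 30 nt around 2 summits with none of the 5 kinds in their window have no capitals. NT5E had the second highest score of the seedless coding peaks, and PRR12 was the gene with the most of them.

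NT5E, chr6:86159946-86159975, plus strand: cgattttgcacaccaacgacgtgcacagcc

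PRR12, chr19:50117825-50117854, plus strand: ctggcgagtccagaaggcccttctgcagaa

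Partial seed matches were concentrated at the summits of the seedless coding peaks. A 6mer was present in 380 of 1386 summit windows (27.4%, CI 25.1–29.8%) and in 37 of the 1386 windows lying 200 nt upstream in the same coding sequence (2.67%, CI 1.94–3.66%). The difference was 24.8 percentage points (exact two-sided McNemar test, adjusted p = 4.6e-78). The 1386 pairs are those in which the upstream window was wholly coding, touched no miR-342-5p peak, and neither window held a 7mer or 8mer.

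The other 4 kinds were also more frequent at the summit. A 1-wobble 7mer was found in 18.0% of summit windows and 3.68% of upstream windows (difference 14.4 percentage points, same exact test, adjusted p = 4.0e-34). The 6mer-A1 was found in 15.4% and 3.61% (11.8 percentage points, exact test, adjusted p = 1.6e-28). The offset 6mer was found in 9.60% and 1.52% (8.08 percentage points, exact test, adjusted p = 5.3e-21). The bulged 7mer was the rarest, in 5.05% and 1.23% (3.82 percentage points, exact test, adjusted p = 3.2e-09). At least 1 of the 5 kinds was present in 830 summit windows (59.9%) and in 157 upstream windows (11.3%).

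The same order of size was found against 3 other backgrounds. The 6mer was in 2.61% of 1417 windows 200 nt downstream, against 27.0% of their summit windows. On the opposite strand of 2422 summit windows it was in 0.991%, against 24.1%. Among 1574 seedless coding windows of the miR-342-3p list, bound by the same protein in the same cells but with another mimic, it was in 19 (1.21%), against 593 of 2437 (24.3%) for miR-342-5p (two-sided Fisher's exact test, adjusted p = 4.1e-113). All 5 kinds passed the threshold of 0.05 against each of the 4 backgrounds.

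**Figure D1:**
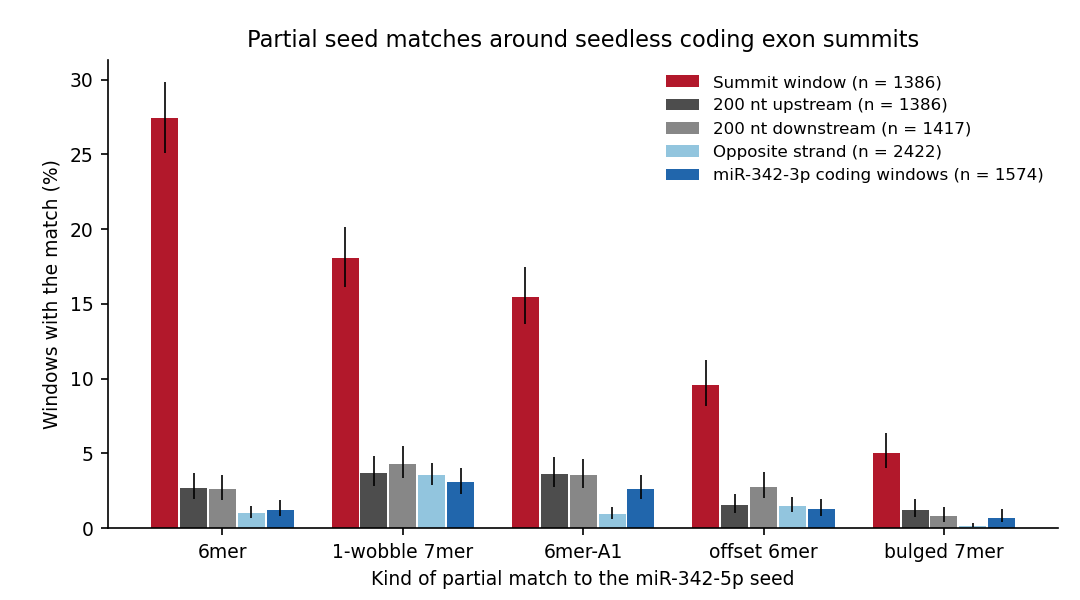
Share of windows (%, y axis) that hold each kind of partial match (x axis), in summit windows of seedless coding peaks and in the 4 backgrounds; bars are shares and lines are 95% Wilson intervals. The summit bars are those of the 1386 pairs with an upstream window, and for the 6mer they stand at 27.4% against 0.991 to 2.67% in the backgrounds.

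The matches lay at the summit itself. In 20-nt bins along the mRNA, 6mers occurred at 7.42 per 1000 coding positions in the bin centred on the summit and at 3.35 in the next bin downstream. In the bin centred 20 nt upstream there were 0.787 per 1000 positions, and 40 nt downstream 0.794. The other kinds peaked in the same bins, with 4.33 per 1000 for the 1-wobble 7mer, 3.28 for the 6mer-A1 and 2.31 for the offset 6mer at the summit. The counts were higher on the downstream side of the summit, and the profile was not split by strand. In coding peaks with 1 full 7mer-m8 site, the centre of the site lay at a median of -2 nt from the summit on the plus strand (305 peaks) and 8 nt on the minus strand (269 peaks).

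**Figure D2:**
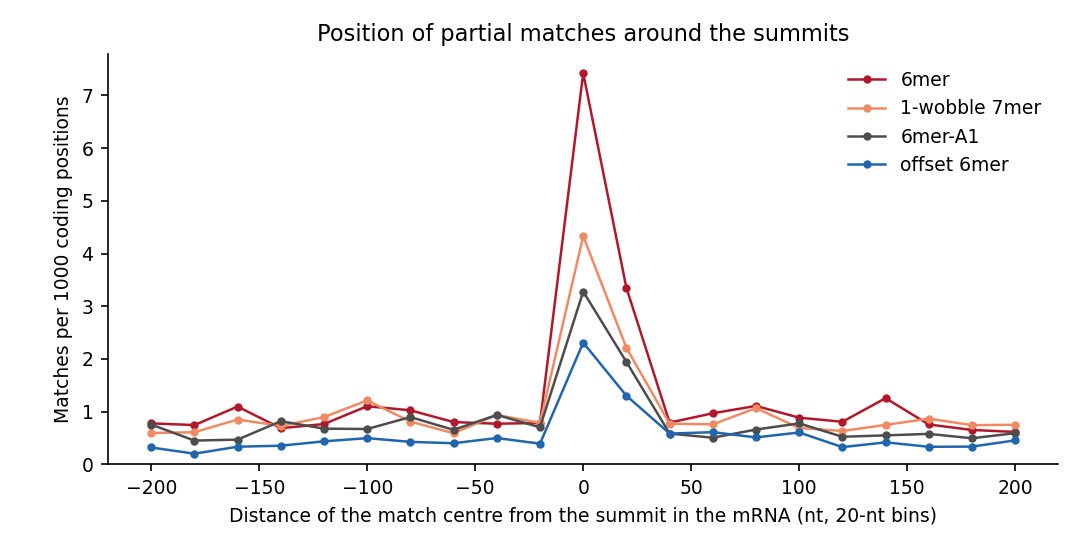
Matches per 1000 coding positions (y axis) by the distance of their centre from the summit in the spliced mRNA (x axis, 20-nt bins), for 4 kinds of partial match around the seedless coding summits. All 4 lines rise in the bins at 0 and 20 nt and are flat elsewhere, with the 6mer reaching 7.42.

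All possible words of 6 letters were then compared between summit and upstream windows, to see which parts of the miRNA were matched without choosing a site. Of these words, 91 were more frequent at the summit after adjustment over all of them, which is 2.22%, and 29 were less frequent. Of the 16 words complementary to miR-342-5p, 4 were among the 91, and they are the 4 at its 5′ end. Against downstream windows 3 of the 16 passed, the word for bases 4 to 9 being lost (5.36% downstream, exact McNemar test, adjusted p = 0.13), and 3 passed on the minus strand alone. They pair with bases 1 to 6 (15.4% of summit windows, 3.32% upstream), 2 to 7, 3 to 8 (9.60% and 1.52%) and 4 to 9 (8.44% and 3.90%). CACCCC, the complement of bases 2 to 7, had the largest difference of all words, and TCACCC followed with 21.9% against 2.09%.

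Against upstream windows, none of the 12 words complementary to bases 5 to 21 passed the threshold. The word pairing with bases 5 to 10 was in 1.15% of summit windows and 0.577% of upstream windows. The largest difference among them, 1.15 percentage points, was for bases 12 to 17 (4.98% and 3.82%, exact McNemar test, adjusted p = 0.67). Against the miR-342-3p windows, 8 of the 16 words passed, among them those for bases 5 to 10, 11 to 16 (6.40% and 3.37%), 12 to 17 and 13 to 18, and those windows are poorer in C (median 21.8% C, against 32.7% around the seedless coding summits, both read in the genome).

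**Figure D3:**
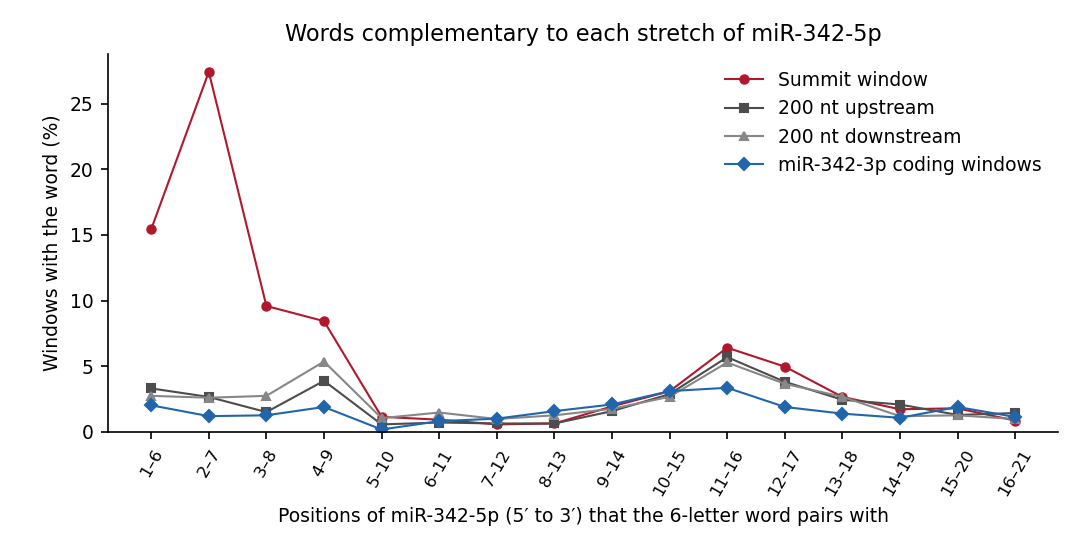
Share of windows (%, y axis) that hold the 6-letter word complementary to each successive stretch of miR-342-5p (x axis), for seedless coding summit windows and 3 backgrounds. The summit line stands apart for the words at bases 1–6 to 4–9 from the upstream line; further on the 2 lines stay within 1.15 percentage points of each other, while the miR-342-3p line lies lower at some words.

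The base next to the 6mer differed from that of other 6mers in the same coding sequences. Of the 629 6mers in summit windows with a readable base before them, 257 (40.9%) had a T, 256 (40.7%) a C and 116 (18.4%) an A, G being excluded by the definition. Away from any miR-342-5p peak, the coding sequences of these genes held 639 6mers that were not part of a full site, and 80 of them (12.5%) had a T before the 6mer and 434 (67.9%) a C. This comparison was chosen after the values were seen and is given with no test. The base after the 6mer was C in 42.9%, T in 33.0% and G in 24.1% at summits, against 49.8%, 30.2% and 20.0% elsewhere. In the reading frame, 268 of 592 6mers at summits (45.3%) began at the third base of a codon, and 98 (16.6%) began a codon and so, as CAC and CCC, encoded histidine and proline. Elsewhere these shares were 35.2% and 18.6%.

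Pairing of the whole miRNA, seed included, was examined with the predicted duplex between miR-342-5p and each window. Partial seed matches, present in 59.9% of these summit windows and 11.3% of upstream windows, count in its energy, so the energy does not measure pairing beyond the seed alone. Its energy was a median of -17 kcal/mol at summits and -15.4 kcal/mol upstream, and it was lower at the summit in 957 of 1365 untied pairs (70.1%, exact two-sided sign test, adjusted p = 1.3e-50). As a description, the miRNA with its letters in reverse order was lower at the summit in 59.3% of pairs, and miR-342-3p in 39.8%. Bases 2 to 7 were all paired in the predicted duplex of 60.9% of summit windows and 38.7% of upstream windows. Base by base, pairing was more frequent at the summit by 11.9 percentage points at base 2 and 10.97 at base 3, and less frequent by a difference of -5.84 at base 8 and -7.58 at base 9. Windows with a 7mer or 8mer were left out, so base 8 could not pair directly next to a 6mer, which was more frequent at summits. The difference at base 8 is thus in part set by the definition, and that at base 9 cannot be read apart from it. Bases 4 to 7 gained between 3.97 and 6.21 percentage points. After base 9, the largest gain was 5.20 percentage points, at base 14. In the 502 pairs where neither window held a partial match, the energy was lower at the summit in 62.9%, and that of the reversed miRNA in 58.8%.

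The summit windows were richer in C and encoded more proline, whose codons all start with CC. More C was found at the summit in 942 of 1314 untied pairs (71.7%, exact two-sided sign test, adjusted p = 1.7e-56), with medians of 31.7% and 27.7%. More proline was encoded there in 782 of 1119 untied pairs (69.9%, exact sign test, adjusted p = 6.6e-41), with means of 11.05% and 7.38% of residues. Among the pairs without a partial match, C was higher at the summit in 69.9% and proline in 62.9%. What part C content itself has in the matches was not tested.

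Counting all seedless coding peaks, 2437 had a readable window in the mRNA with no full site, and 1334 of these (54.7%) held at least 1 partial match. Taken in a fixed order, 593 held a 6mer, 200 more an offset 6mer, 282 a 6mer-A1, 228 a 1-wobble 7mer and 31 a bulged 7mer only. The remaining 1103 (45.3%), in 664 genes, held none of the 5. Most windows with a 6mer had a single one (555), 34 had 2 and 4 had 3 or more. No window could be read for 9 peaks, whose summit or window fell outside the chosen transcript.

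The other 96 peaks, in 92 genes, did have a 7mer or 8mer once introns were removed. The window of 1043 peaks crossed a splice junction, and these sites were missed in the genome because the exon ends within the window. For 81 of the 96, the site was not in the genome within 150 nt of the summit. The highest of the seedless coding peaks, in ACTG1, is one of them, with a 7mer-m8 starting 7 nt downstream of the summit in the mRNA. Others, chosen after their values were seen, were in ARRDC3 (score 258, 7mer-A1), PXDN (254, 7mer-A1) and NOTCH2 (160, 8mer). These 96 peaks meet the definition, which reads the genome, and they were left out of the comparisons of windows above. Their median score was 25.5, close to the 26 of coding peaks with a seed site in the genome.

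Scores, which the study describes as reads above background, were lower without a seed site. Seedless coding peaks had a median score of 18 (quartiles 11 and 33, range 5 to 981), and coding peaks with a seed site one of 26 (quartiles 15 and 51, up to 767). A score above 50 was reached by 376 seedless coding peaks (14.8%, CI 13.5–16.2%) and 244 of those with a site (25.2%, CI 22.6–28.1%), which differ by -10.4 percentage points (Fisher's exact test, two-sided, adjusted p = 3.7e-12). Both classes overlap over nearly their whole range. The 981 is the ACTG1 peak with a site in the spliced mRNA, and the next highest seedless score was 732, below the 767. Seedless peaks were also narrower, with a median width of 72 nt against 88 nt. How much of a score follows the abundance of the mRNA cannot be told from the lists.

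Within the seedless coding peaks, scores were ordered weakly by the match. Those with a 6mer had a median of 21 and 106 of 593 (17.9%, CI 15.0–21.2%) were above 50, against a median of 15 and 129 of 1103 (11.7%, CI 9.93–13.7%) for those with no partial match. This difference of 6.18 percentage points passed the test (two-sided Fisher's exact test, adjusted p = 0.00074) but not with 1 peak per gene, where it was 3.38 percentage points (adjusted p = 0.30). The median was 21 with a 6mer-A1, 18 with an offset 6mer, 17 with a 1-wobble 7mer and 13 with a bulged 7mer, and these classes were not tested against each other.

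**Figure D4:**
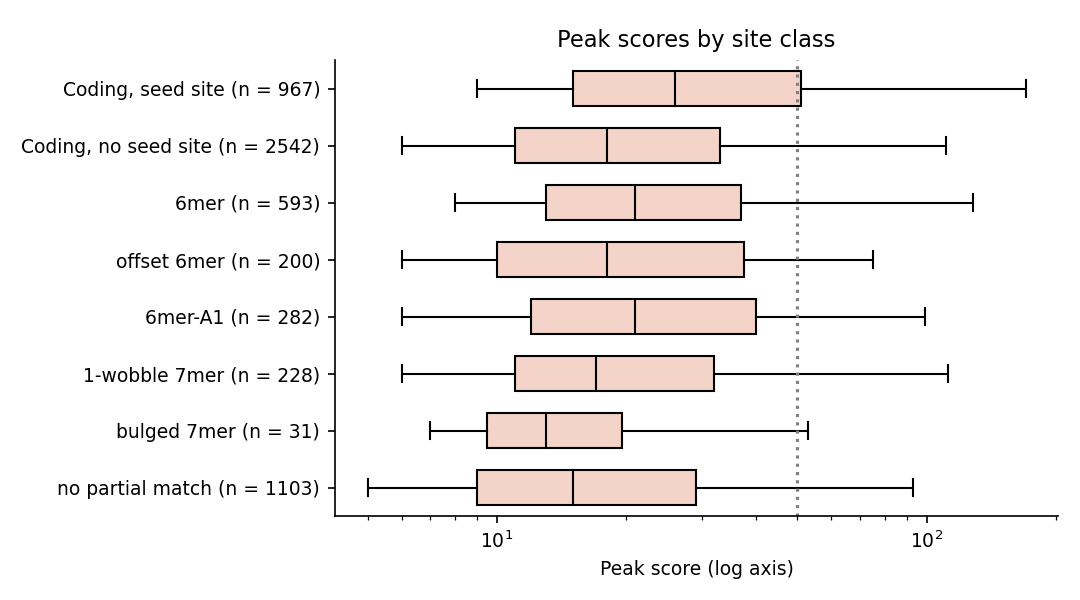
Peak scores (x axis, log scale) of coding peaks with and without a seed site, and of seedless coding peaks by the first kind of partial match found (y axis, n in each label). Boxes are quartiles with the median, whiskers run from the 5th to the 95th percentile, and the dotted line marks a score of 50; the boxes overlap, with medians of 26 and 18 in the upper 2.

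Seedless peaks in 3′UTRs held 6mers more often than those in coding exons. With windows read in the genome in both, a 6mer was present in 568 of 2542 seedless coding peaks (22.3%) and in 169 of 497 seedless 3′UTR peaks (34.0%), which differ by -11.7 percentage points (Fisher's exact test, two-sided, adjusted p = 4.4e-07). The offset 6mer went the other way, with 8.34% in coding exons and 4.02% in 3′UTRs (exact test, adjusted p = 0.0015). The 6mer-A1, the 1-wobble 7mer and the bulged 7mer differed by 3.22, 3.89 and 1.68 percentage points (exact test, adjusted p = 0.059, 0.050 and 0.067). The mRNA windows of 1043 seedless coding peaks crossed a splice junction, so their genome windows included intron. Read in the mRNA, 593 of 2437 coding windows (24.3%) held a 6mer, and the 3′UTR windows were read in the genome only. What part this has in the difference was not tested. This comparison of coding exons and 3′UTRs was added after the data were seen.

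Seedless coding peaks were spread along the coding sequence. The first, the middle and the third of 3 equal parts of it held 31.8%, 33.8% and 34.5% of them. In the third part, which ends at the stop codon, the share of coding peaks with a seed site was 36.7%, a difference of -2.25 percentage points that did not pass the test (two-sided Fisher's exact test, adjusted p = 0.26; CIs 32.6–36.3% and 33.7–39.8%). Only 4.92% lay within 100 nt of the stop codon. A miR-342-3p peak overlapped 39 seedless coding peaks (1.53%, CI 1.12–2.09%) and 12 of those with a site (1.24%, CI 0.711–2.16%), and this difference did not pass the test either (exact test, adjusted p = 0.64).

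Some seedless coding peaks were neighbours of a peak with a seed site. A gap of at most 200 nt to such a peak was found for 444 (17.5%, CI 16.04–18.99%), and of at most 50 nt for 305, with median scores of 12 and 11. In the spliced transcript, the nearest 7mer or 8mer was 51 to 75 nt from the summit for 126 of 2437, and further than 500 nt or absent for 1497 (61.4%). Just outside the limit, these 126 had a median score of 13, and just inside it, the 27 coding peaks whose nearest site was 41 to 50 nt away had a median of 10. At 0 to 10 nt, where 735 of the coding peaks with a site had theirs, the median was 29.

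The seedless coding peaks with the highest scores were in genes of the cytoskeleton, the secretory pathway, protein folding and metabolism, and most carried a partial match. ACTG1, which encodes a cytoplasmic actin, had the highest score of 981 (chr17:79477877-79478036, minus strand, coding sequence at 87.0% of its length). NT5E, the ectoenzyme CD73 that makes adenosine from AMP, followed with 732, at 3.14% of its coding sequence and with none of the 5 kinds of match. B2M, the light chain of MHC class I, had 669, and KDELR1, a receptor that returns escaped proteins to the endoplasmic reticulum, had 604, both with a 6mer.

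A 6mer was also present in HSP90AA1, an HSP90 chaperone (567), in DUSP6, a phosphatase that inactivates ERK (468), and in FLNA, an actin crosslinker (465), where a 6mer-A1 and a wobble 7mer accompanied it. PKM, a pyruvate kinase of glycolysis, had 2 of the high peaks, with scores of 385 and 346, 1 at 19.6% and the other at 76.1% of the coding sequence, and both held a 6mer-A1. No partial match was found in RPL35A, a ribosomal protein (453), GAPDH, a glycolytic dehydrogenase (364), or UBB, a polyubiquitin (362). The GAPDH peak lay 97 nt from a peak with a seed site. ACTG1, HSP90AA1, GAPDH, UBB, EEF1A1 and the ribosomal protein genes have close paralogues or processed pseudogenes, and since the treatment of reads with several matches is not given in the sources used here, their scores are uncertain.

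Most genes with a seedless coding peak had a single one. Of the 19785 protein-coding genes of the annotation, 6.5% held at least 1. Among these 1287 genes, 835 held 1, 221 held 2 and 93 held 5 or more, and the 93 took 810 of the 2542 peaks (31.9%). The 26 genes with 10 or more had a median coding length of 6561 nt and encoded proteins with a median of 11.8% proline. Genes with a single one had medians of 1617 nt and 6.02%. A coding peak with a seed site was also present in 337 of the 1287 genes (26.2%), which is 44.2% of the 762 genes that had one.

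Most of the genes with the highest numbers encode large nuclear regulators. PRR12, a proline-rich nuclear protein, held 30 in 6108 nt of coding sequence, or 4.91 per kb, with scores of 5 to 26. KMT2D, a histone H3 lysine 4 methyltransferase, held 26 with scores of 5 to 61, and 13 of its 26 windows had a 6mer. SPEN, a transcriptional corepressor of Notch targets, also held 26, with scores of 5 to 51, but only 2 had a 6mer. SETD1B, another histone H3 lysine 4 methyltransferase, held 24 (5 to 56), 11 of them with a 6mer. The median scores of these 4 genes were 11, 21.5, 12.5 and 20, around the 18 of all seedless coding peaks. The highest seedless peak of SPEN lay 1 nt from a miR-342-5p peak with a seed site. Those of PRR12, KMT2D and SETD1B lay 14611, 8305 and 742 nt from one in the genome.

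ANKRD11, an ankyrin repeat regulator of chromatin, held 17, with scores of 8 to 161. The ANKRD11 peak of 161 is among the 96 with a full site once introns were removed. BCL9L, a coactivator of β-catenin, TNRC18 and the acetyltransferase EP300 held 16 each. The highest of BCL9L (63) and TNRC18 (48) lay 2 and 4 nt from a peak with a seed site, and that of EP300 (28) 47235 nt. DYNC1H1, the heavy chain of cytoplasmic dynein, stood apart with 14 peaks of a median score of 61, 8 of them above 50, in a protein with 4.00% proline. EP300 and ANKRD11 had no coding peak with a seed site, nor had DYNC1H1, while SPEN had 9 and KMT2D 7.

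The spread of the peaks over the coding sequence differed from gene to gene and was not tested against an even one. All 16 peaks of EP300 lay between nucleotides 5356 and 7040 of its 7242-nt coding sequence. In TNRC18, 13 of 16 lay between nucleotides 1136 and 3131 of 8904, and in ANKRD11, 12 of 17 lay between 5004 and 6954 of 7989. The first peak of SPEN was at nucleotide 6594 of 10992, and KMT2D had 15 of 26 between 1038 and 2734 of 16611. PRR12 had its 30 from nucleotide 17 to 5117 of 6108, with 16 in the densest 2000 nt, and SETD1B had its 24 from 31 to 5699 of 5898, with 14. BCL9L had 16 from 111 to 4397 of 4497. In DYNC1H1 no stretch of 2000 nt held more than 5 of the 14. Overlapping windows and repeated codons mean that peaks of a gene are not independent of each other.

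**Figure D5:**
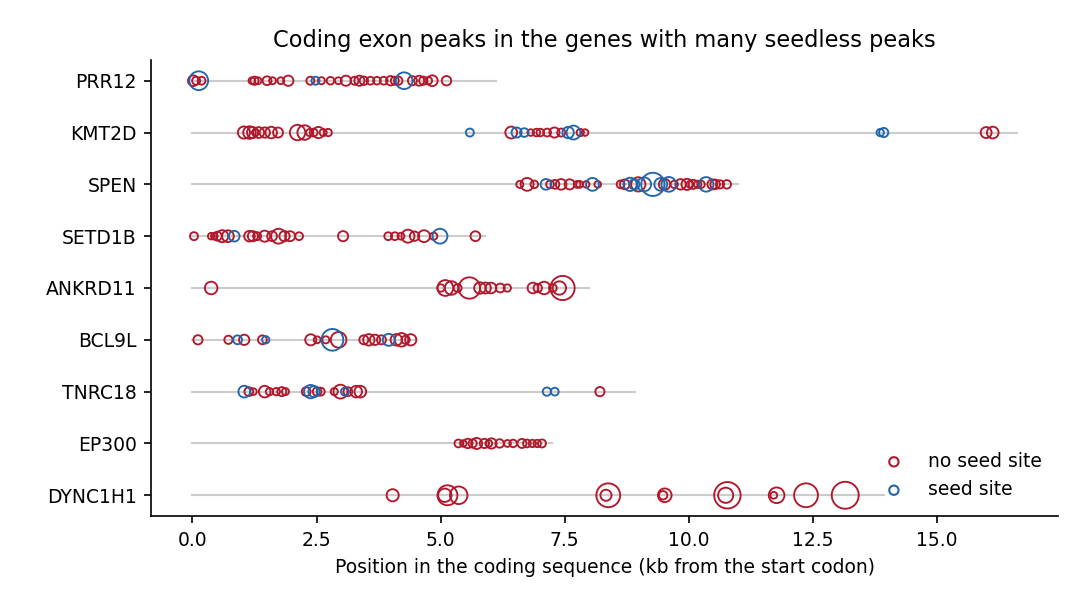
Coding exon peaks (circles) of 9 genes with many seedless coding peaks, by position in the coding sequence (x axis, kb from the start codon); the grey line is the coding sequence and the area of a circle grows with the score. In EP300 all 16 seedless peaks lie between nucleotides 5356 and 7040, whereas those of PRR12 run from 17 to 5117.

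Gene lists chosen from textbook pathways and from the study were counted next, against the 6.5% of all protein-coding genes. Several hold abundant or long genes, and abundance and length were not adjusted for, so their shares describe where the peaks are and are not a result about a pathway. Over all seedless coding peaks, 54.7% of windows held a partial match, and the share of each list is to be read beside this. Of 38 chromatin regulators, 27 held a seedless coding peak, 234 peaks in all with a median score of 13, and 122 of 228 windows held a partial match. Of 29 cytoskeletal and giant scaffold genes, 22 held 87 peaks with a median of 39, with a partial match in 36 of 86 windows. RNA polymerase II and splicing had 12 of 23 genes and 46 peaks, led by SNRNP200, a spliceosomal helicase (132, with a 6mer), and a partial match in 25 of 45 windows.

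Translation factors had 10 of 23 genes and 24 peaks, led by the elongation factor EEF1A1 (296), and 14 of 22 windows held a partial match. Cytosolic ribosomal proteins had 17 of 86 genes and 25 peaks with a median score of 70, led by RPL35A, and a partial match in 11 of 23 windows. Glycolysis had 6 of 17 genes and the highest median, 97 over 14 peaks, 7 of which were in PKM and 3 in GAPDH, and 4 of the 14 windows held a partial match. Chaperones had 10 of 21 genes and 13 peaks, with a partial match in 5 of 13 windows. Extracellular matrix and integrins had 13 of 29 genes and 35 peaks, led by P4HB, a protein disulfide isomerase (197, with no partial match), and 16 of 34 windows held a match.

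Signalling genes had 11 of 22 with 40 peaks, led by DUSP6, which held 3, and a partial match in 19 of 37 windows. Fatty acid and cholesterol synthesis had 5 of 17 genes with 1 peak each and scores of up to 36, and all 5 windows held a partial match. In the RNA silencing machinery, 7 of 19 genes held 13 peaks, and 10 of the 13 windows held a partial match. Its highest peak was in XPO5, the exporter of precursor miRNAs (51, with a 6mer). AGO2, the Argonaute that was immunoprecipitated, held 2, the higher with a score of 34.

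The genes that the study names were looked up last. The 12 genes named for miR-342-5p were picked by the study partly for holding a miR-342-5p peak in these same data. How many of them held a seedless coding peak is therefore not a result about them. Of the 12, 4 did, beside 6.5% of all protein-coding genes. ECT2, a guanine nucleotide exchange factor needed in cytokinesis, had a score of 44 (chr3:172482159-172482290, plus strand) with a 6mer. GTF2A2, a subunit of TFIIA, had 35, also with a 6mer. RAC2, a small GTPase, had 2 peaks of 23 and 6, and the higher, near the stop codon at 98.4% of the coding sequence, had a full site once introns were removed. RDX, which links actin to the plasma membrane, had 16 with a 6mer-A1. A partial match was present in 3 of the 4 windows of this list that had no full site. Of the 15 genes named from the E2F network, 4 held 5 peaks: DNMT1, the maintenance DNA methyltransferase (33), HMGB2, a chromatin protein (20 and 12), SPAG5, a spindle protein (11), and LMNB1, a nuclear lamin (7). None of these 5 windows held a partial match. The study describes members of this network as direct targets of miR-342-3p. For miR-342-5p it reports lower E2F signalling without direct targeting of the network's components.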

How the data were processed

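Ago-HITS-CLIP was done by the authors in MDA-MB-231HM cells with 3 libraries per mimic. They mapped reads to hg19 with TopHat, kept alignments that passed a Samtools quality filter, and ran the MACS2 peak caller strand by strand, comparing a miR-342 mimic with the control mimic. The submitters' processing notes also name cutadapt 1.13, TopHat2 2.0.13, UMI-tools and MACS2 2.1.1.20160309. The deposited lists hold a score per peak, described by the authors as reads above background and at least 5, and a summit position. How libraries were scaled and how duplicate or multiply mapped reads were treated is not given in the sources used here, and the depth per sample is unknown. Scores could therefore also follow mRNA abundance and mappability.

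Peaks were placed on GRCh37 with basic protein-coding transcripts of GENCODE release 44, with 1 transcript per gene for spliced windows. The stop codon was counted with the 3′UTR. Windows reached 50 nt to each side of the summit, and background windows lay 200 nt away in the same coding sequence. Paired shares were compared by exact two-sided McNemar tests, unpaired shares by two-sided Fisher's exact tests and paired values by exact sign tests. All were adjusted by Benjamini-Hochberg. Tests of partial matches, also those against miR-342-3p windows or 3′UTR peaks, were adjusted over the 5 kinds of match. Tests of words were adjusted over all words of 6 letters. The sign tests and the Fisher's exact tests of scores, position and overlap were adjusted together over 7 tests. Duplexes were predicted with RNAduplex of ViennaRNA 2.7.2. Python 3.11.15, pysam 0.24.0, samtools 1.23.1, pandas 2.3.3, numpy 2.4.6, scipy 1.17.1, statsmodels 0.14.6 and matplotlib 3.10.9 were used. The comparisons of windows were tested on simulated data: with 924 pairs of upstream and downstream windows, 0 words passed, and a 6mer planted in 5% or 10% of windows was called in the scan of words, but not one planted in 2%.

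The peaks and gene lists were chosen with earlier results of these data known. Named genes are those of the 12 highest scores (1 per gene), the 10 genes with most peaks (ties by summed score), the highest of each list, and genes the study names for this experiment. Some genes that these rules name are not reported here. Sequences are those of the highest scores and of the highest scores for each kind of match. Alternatives covered score minimums, window size and centre, location, strand, 1 peak per gene, neighbouring peaks and other backgrounds. RNA-seq and proteomic values were not analysed here.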

Additional observations from a re-analysis of the deposited data

How the results depend on the processing

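No paired analysis was possible because the lists merge the replicates and carry no value per library, and for the same reason no library could be left out. Of 173 values recomputed for 16 results under 19 settings, 157 kept their direction and side of the threshold, or stayed within the margin for a count or share. All 5 kinds of partial match, the energy, C and proline comparisons and the score difference between peaks with and without a seed site were among these under every setting that could be run for them. The windows centred on peak midpoints, the single strands and 2 comparisons (scores with a 6mer, 3′UTRs) were added after the data were seen. With a score above 50, 376 peaks remained and 2 of the 16 miRNA words passed, against 4 of 16 with all peaks, 3 against downstream windows or on the minus strand alone, 5 with windows read in the genome, 7 against the opposite strand and 8 against miR-342-3p windows; fewer pairs were tested at the higher score. The share within 200 nt of a peak with a seed site (17.5%) was 12.9% at a score of at least 10, 9.57% above 50, 19.3% with sites sought in the whole peak and 11.8% with 1 peak per gene, and 13.9% and 22.6% at distances of 100 and 500 nt. The excess of scores above 50 with a 6mer (6.18 percentage points) no longer passed at a score of at least 10 (3.50), with 1 peak per gene (3.38), without peaks near a seed site (3.85) or on the minus strand alone (4.08), and the cause was not tested. The difference in overlap with miR-342-3p peaks, never past the threshold, turned to -0.0985 percentage points with 1 peak per gene and -0.117 on the plus strand. Read depth per library, unknown here, limits every score.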

Other observations

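PHLDA1, a pleckstrin homology domain protein whose coding sequence ends in repeats of proline with glutamine or histidine, held the highest peaks with an offset 6mer and no 6mer, with scores of 276 and 234. In the peak of 276 the match began at -50 nt from the summit, the edge of the window, and in the peak of 234 at -11 nt. Among other high peaks outside the genes named so far, TFG, an organiser of exit sites of the endoplasmic reticulum, had a score of 279 with no partial match and 37.6% C in its window, and RPS25, a ribosomal protein, had 345 with a 6mer-A1. These were chosen after their values were seen.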
